A study of Mus musculus with 40 samples.

Results

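RNA of the post-anastomotic ileum was compared between mice that had small bowel resection (SBR) followed by the drug WUSTL0717 and sham-operated mice given vehicle. Each difference therefore holds the effect of the operation and that of the drug together. The libraries were chosen by their titles: 4 SBR WUSTL0717 and 3 sham vehicle libraries of the ileum, 7 of the 40 libraries in the series. All genes with a mean of at least 1 log2 TPM over the 11 ileal libraries were kept, which were 15772 of the 15958 genes in the table. Among the genes nearest to that limit, Acsl6 lay inside it at a mean of 1.001 and Tnfsf13b outside it at 0.998.

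All mice were wild-type C57BL/6 males operated on at 8 weeks of age. Sham mice had the bowel cut and rejoined, and SBR mice lost part of the small intestine, 50 to 60% by the sample labels. The study's own text gives a larger extent, and the difference could not be settled. From 3 weeks after the operation, mice were given WUSTL0717 at 30 mg/kg or vehicle by mouth every day for 7 weeks. The sham group received vehicle alone. A further group of 4 libraries, SBR vehicle, had the resection without the drug and serves to set the parts of the combined difference side by side. No sham mouse of the series received the drug, so its effect on an unresected ileum was not measured here.

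WUSTL0717 is an agonist of the liver X receptors (LXRs) made to stay in the intestine. LXRs are nuclear receptors that sense oxidised cholesterol. They switch on the transporters that move cholesterol out of cells, the lipoprotein genes that carry it, and Srebf1, the transcription factor that drives fatty acid synthesis. When cells run short of sterol, a sister factor, SREBP2, turns on the enzymes of cholesterol synthesis. The ileum is the part of the gut that takes bile acids back, through Slc10a2 and Fabp6, and after resection of the bowel upstream of it the ileum is known to adapt its growth and its absorptive genes.

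Values are given as log2 TPM, a length-scaled transcript abundance, after the authors' correction for batch, and a difference of 1 on this scale is a doubling. The number of reads per library is unknown. Turned back into TPM, 10 ileal libraries summed to between 618212 and 710254, and treated library 2 summed to 807720. That library also had the highest median value, 3.824, against 3.181 to 3.556 in the other 10, and the lowest limma library weight, 0.278. Ileal markers were present in every group. The check used Fabp6, Slc10a2 and Slc51b of the ileum, and Vil1, Epcam and Cdh1 of epithelium in general. Fabp6 and Slc10a2 are also among the genes called below. The 6 markers summed to between 486.3 and 495.3 TPM in sham and between 788.2 and 1160 TPM in treated libraries. Of 11 pancreatic enzyme genes, 10 lay at or below 0 in all ileal libraries.

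Of the 15772 genes, 343 (2.17%) differed between treated SBR and sham ileum at an adjusted p under 0.05 by limma. Of these, 262 (1.66%) were higher and 81 (0.514%) lower, and 2223 genes (14.1%) had an unadjusted p under 0.05, 9.75% of all genes higher and 4.35% lower. In 1492 genes (9.46%) all treated libraries lay above all sham libraries, and in 588 (3.73%) all lay below. The median log2 fold change over all genes was 0.07. The count of calls depended on the libraries, on the groups in the fit and on the test. Limma on the compared groups alone gave 137 calls. An unmoderated two-sample test, which also uses those groups alone, gave 0 calls, with 1580 genes at an unadjusted p under 0.05. With limma on all ileal groups, the count was 65 without sham library 1, 67 without sham library 2 and 208 without sham library 3. It was 219 without SBR vehicle library 1, and 227, 121 and 195 without treated libraries 2, 3 and 4. Of 81 called genes named in the text, 28 kept their call whichever library was left out, and none changed direction. The other 53 lost it without at least 1 library, 45 of them without sham library 1 and 48 without sham library 2. Genes that kept the call in all 11 such fits are called stable in what follows. In bulk tissue, fewer cells of a type and less RNA per cell cannot be told apart.

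**Figure D1:**
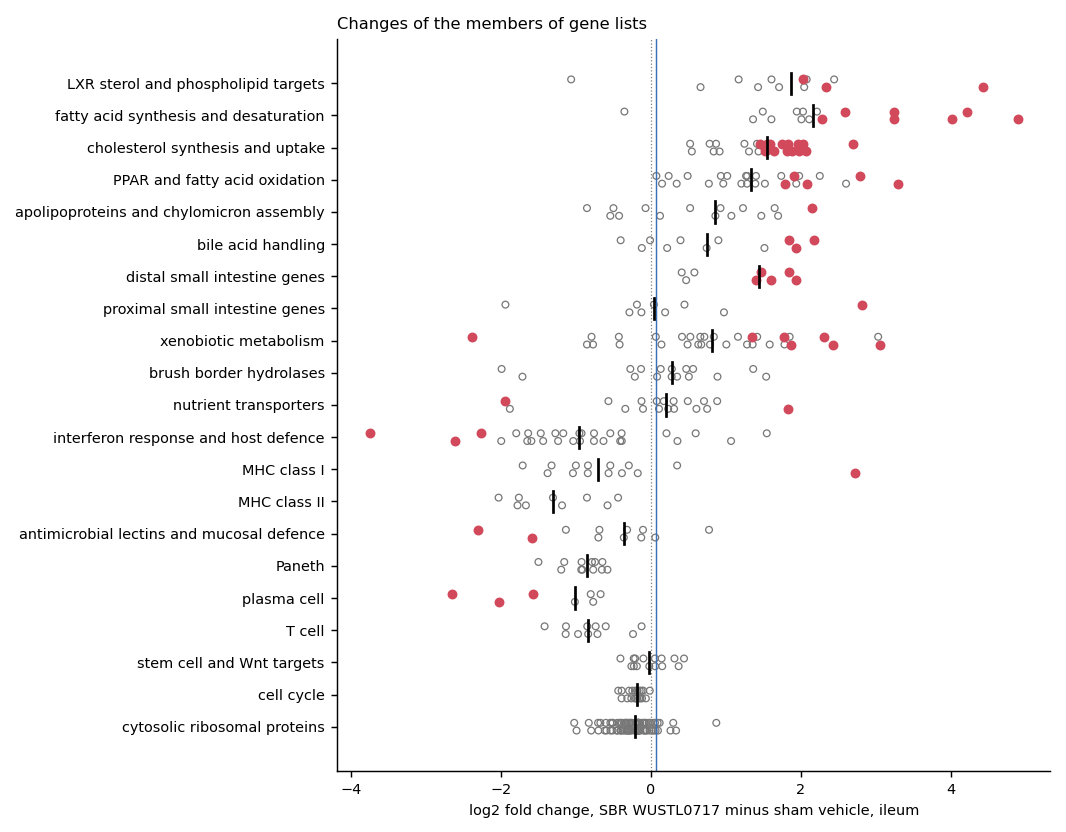
Each point is 1 gene of a chosen list, placed by its log2 fold change in ileum (SBR WUSTL0717 minus sham vehicle, x axis). Filled red points had a limma adjusted p under 0.05, black bars are list medians, the blue line is the median of all genes (0.07) and the dotted line is 0. Lists of fatty acid synthesis (median 2.16), LXR sterol targets (1.87) and cholesterol synthesis (1.55) lie to the right, and those of interferon response (-0.95) and MHC class II (-1.31) to the left.

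Of the genes that LXR agonists are known to turn on, 3 of 12 sterol and phospholipid targets and 7 of 16 genes of fatty acid synthesis and desaturation were called higher in treated SBR ileum. Promoters of 3 genes of these lists are shown because each holds the letters GGTTA, then any 5 bases, then GGTCA, a direct repeat of the spacing that LXR with its partner RXR is known to bind. They are the 300 bases around the RefSeq start (250 before and 50 after, build GRCm38.p6, on the gene's strand), with the match in capitals, which in all 3 lies on the opposite strand.
Srebf1, chr11:60210422-60210721, minus strand, match from base -182: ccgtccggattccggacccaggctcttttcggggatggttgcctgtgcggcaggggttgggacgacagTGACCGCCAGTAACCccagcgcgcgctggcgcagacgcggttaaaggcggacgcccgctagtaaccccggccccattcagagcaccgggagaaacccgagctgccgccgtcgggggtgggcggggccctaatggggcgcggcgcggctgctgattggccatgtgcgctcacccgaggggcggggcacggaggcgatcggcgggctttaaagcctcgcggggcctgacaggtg
Fasn, chr11:120824498-120824797, minus strand, match from base -225: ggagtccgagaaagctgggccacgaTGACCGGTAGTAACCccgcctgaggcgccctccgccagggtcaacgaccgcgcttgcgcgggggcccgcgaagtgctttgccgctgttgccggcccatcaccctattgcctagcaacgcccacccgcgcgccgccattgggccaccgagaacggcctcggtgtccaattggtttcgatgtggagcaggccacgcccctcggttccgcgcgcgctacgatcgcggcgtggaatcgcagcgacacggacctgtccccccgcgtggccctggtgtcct
Abca1, chr4:53159846-53160145, minus strand, match from base -67: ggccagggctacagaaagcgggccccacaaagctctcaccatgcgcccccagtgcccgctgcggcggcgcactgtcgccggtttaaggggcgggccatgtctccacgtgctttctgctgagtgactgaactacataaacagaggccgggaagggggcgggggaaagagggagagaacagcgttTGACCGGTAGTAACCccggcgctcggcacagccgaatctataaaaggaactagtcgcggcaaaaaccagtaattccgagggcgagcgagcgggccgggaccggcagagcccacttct

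Both strands were searched. These letters occur in the promoters of 13 of 27025 genes (0.0481%) in the RefSeq table, in 1 of the 8 LXR sterol targets with a promoter there and in 2 of the 13 fatty acid genes. The stricter spelling AGGTCA, any 4 bases and AGGTCA, with 4 genes (0.0148%) in all, was in none of them. The spelling shown was chosen after 11 spellings of several motifs had been searched. A match in this window is a description of the letters and not of binding.

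Srebf1, the transcription factor for fatty acid synthesis, had levels of 4.84, 5.40 and 5.68 log2 TPM in sham libraries and of 6.89, 9.05, 8.31 and 9.97 in treated ones. SBR vehicle libraries, at 5.21, 5.23, 5.25 and 4.96, lay within the sham range, and the treated libraries lay above all 7 others. The log2 fold change over sham was 3.25 (SE 0.56, limma adjusted p = 0.0151), and the call was lost without sham library 1 or 2 (highest adjusted p 0.0835). Scd1, which puts the first double bond into stearate, was at 7.23, 6.61 and 7.43 in sham and at 11.50, 12.92, 11.66 and 11.84 in treated ileum. Its difference of 4.89 (SE 0.43, adjusted p = 0.000383) was the largest of all genes called and was stable. In SBR vehicle libraries Scd1 lay between both groups, at 9.37, 8.12, 9.30 and 8.76. Its neighbours Scd2 and Scd3 had fold changes of 4.02 (SE 0.44) and 3.69 (SE 0.41), both stable. The Scd genes lie side by side on chromosome 19 (Scd1 at chr19:44394455-44407879) and are close copies, so reads may be split between them and their separate values are uncertain.

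Of the 16 genes of fatty acid synthesis and desaturation, 7 were called higher and none lower, 15 had treated libraries above all sham libraries, and the median fold change was 2.16. Fasn, the fatty acid synthase, was at 6.72, 6.48 and 7.06 in sham and at 8.76, 12.26, 9.40 and 9.55 in treated libraries (log2 fold change 3.24, SE 0.67, limma adjusted p = 0.03, lost without any 1 sham library or without treated library 3 or 4). Thrsp, a lipogenic regulator, had a fold change of 4.21 (SE 0.76) and Me1, which makes NADPH for the pathway, one of 2.59 (SE 0.42). Treated library 2 held the highest value of Scd1, Scd2, Scd3, Fasn, Thrsp and Me1. Without it, the fold changes of Fasn and Thrsp were 2.48 and 3.40, and 8 genes of the list were called. Counts of called members were 3, 2 and 5 without sham libraries 1, 2 and 3, and 5 without treated library 3 or 4. Elovl6, the elongase of palmitate, was the exception, at -0.35 (SE 0.32, adjusted p = 0.718). In Elovl6, treated library 2 lay at 4.81 and the other 3 treated libraries between 3.62 and 3.73.

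Acsl3, which joins fatty acids to coenzyme A and coats new lipid droplets, was at 2.50, 2.30 and 2.71 in sham and at 5.32, 6.47, 5.64 and 5.79 in treated ileum (fold change 3.30, SE 0.30, limma adjusted p = 0.000415). The smallest p of all belonged to Utp14b, at 1.97, 1.89 and 2.42 against 5.19, 5.73, 5.39 and 5.05 (fold change 3.24, SE 0.25, adjusted p = 0.000189). Utp14b (chr1:78658038-78671512) lies inside Acsl3 (chr1:78657825-78707743) on the same strand, so reads of the 2 genes cannot be told apart with certainty, and the pair counts as 1 locus. Acox2, the peroxisomal oxidase of branched chains and bile acid precursors, had a fold change of 3.55 (SE 0.38). All 3 calls were stable.

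**Figure D2:**
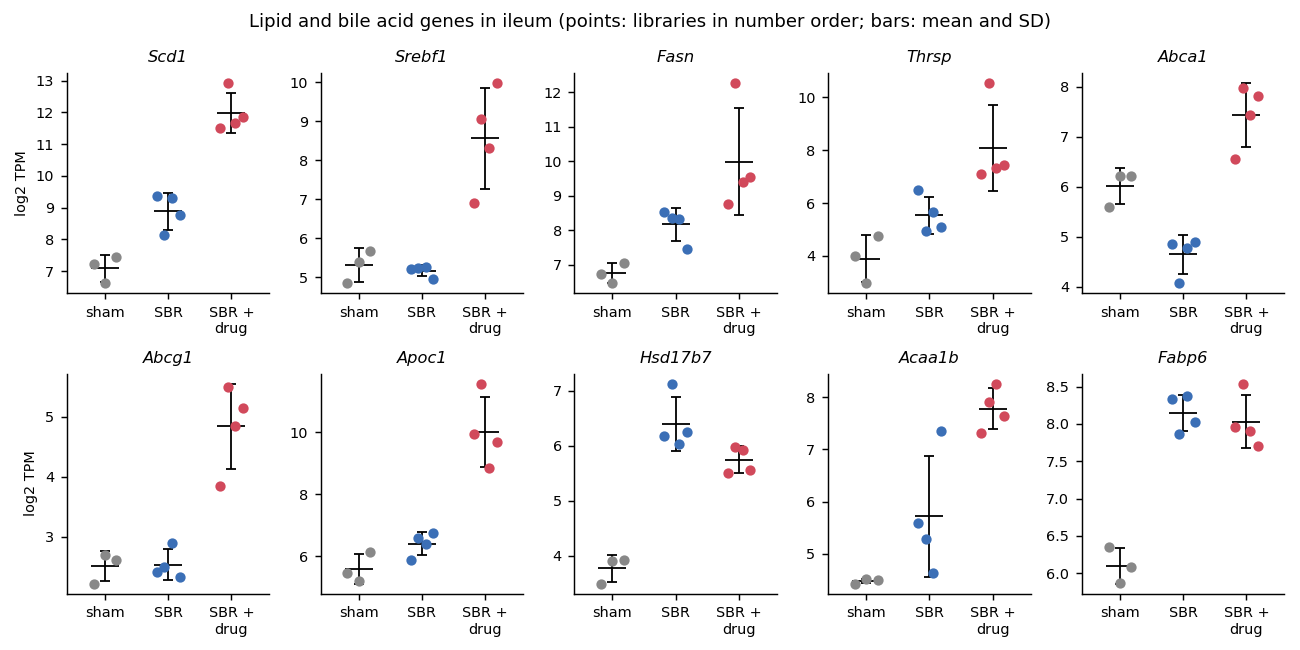
Log2 TPM (y axis) of 10 lipid and bile acid genes in sham, SBR vehicle (SBR) and SBR WUSTL0717 (SBR + drug) ileum. Points are libraries in number order and bars the mean and SD (n = 3, 4 and 4). Srebf1 and Abcg1 stand high only in the drug group, Abca1 is lowest in SBR vehicle, and Hsd17b7 and Fabp6 are high in both SBR groups.

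Of the 12 LXR sterol and phospholipid targets tested, 3 were called higher and none lower, with a median of 1.87. In 9 of them all treated libraries lay above all sham libraries, and in 1 all lay below. Apoc1, an apolipoprotein of triglyceride-rich particles, was at 5.46, 5.20 and 6.13 in sham and at 9.95, 11.58, 8.85 and 9.69 in treated libraries. Its fold change of 4.42 (SE 0.53, limma adjusted p = 0.00247) was stable. The cholesterol exporter Abcg1 had levels of 2.22, 2.69 and 2.62 in sham, 2.42, 2.50, 2.90 and 2.33 in SBR vehicle and 3.84, 5.50, 4.85 and 5.15 in treated libraries. All 4 treated values lay above all others (fold change over sham 2.33, SE 0.36, adjusted p = 0.00897, lost without sham library 1 at 0.0539). Abcg5, which with Abcg8 pumps sterols back into the gut lumen, had a fold change of 2.03 (SE 0.39, adjusted p = 0.0239, lost without any 1 sham library or without treated library 2, 3 or 4). Abcg8 had one of 2.04 (SE 0.49) with an adjusted p of 0.0583. The pair overlap head to head (Abcg5 chr17:84658234-84683011, minus strand, Abcg8 chr17:84676302-84700333, plus strand), so overlapping reads may be assigned to either. Lpcat3, which loads polyunsaturated chains into phospholipids, was at 1.71 (SE 0.41, adjusted p = 0.0594).

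Abca1, the exporter that lipidates apolipoprotein A1, did not pass the test against sham. It was at 5.60, 6.22 and 6.22 in sham and at 6.55, 7.97, 7.43 and 7.81 in treated libraries, without overlap (fold change 1.43, SE 0.37, limma adjusted p = 0.0753). In SBR vehicle libraries it lay below sham, at 4.85, 4.07, 4.78 and 4.90, so the difference of treated from SBR vehicle libraries was larger, 2.79 (SE 0.34, adjusted p = 0.0165). Smpdl3a, a phosphodiesterase gene, was the only list member below sham (-1.06, SE 0.26, adjusted p = 0.0594). The receptors themselves, Nr1h3 (LXR alpha) and Nr1h2 (LXR beta), were at 0.66 (adjusted p = 0.501) and -0.10 (adjusted p = 0.948). Called members of the list numbered 1 without sham library 1, and 2 without sham library 2, sham library 3, treated library 3 or treated library 4. They numbered 7 without treated library 1.

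Of 25 genes of cholesterol synthesis and uptake, 14 were called higher, all 25 lay above 0 and 23 did not overlap, with fold changes between 0.52 and 2.69 and a median of 1.55. Insig1, which holds SREBPs back in the endoplasmic reticulum and is itself an SREBP target, was at 4.12, 4.81 and 4.36 in sham and at 6.07, 7.60, 6.85 and 7.98 in treated ileum (2.69, SE 0.52). The enzyme genes Tm7sf2 (2.07, SE 0.27, stable), Msmo1 (2.02, SE 0.33), Hsd17b7 (1.98, SE 0.31), Dhcr7 (1.64, SE 0.32) and Fdft1 (1.55, SE 0.29) rose. The lowest fold change was that of Stard4, a sterol carrier, at 0.52 (SE 0.35, limma adjusted p = 0.577). Called members fell to 1, 3 and 5 without sham libraries 1, 2 and 3, and to 8, 4 and 6 without treated libraries 2, 3 and 4. The median stayed between 1.46 and 1.55 in those fits.

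For this pathway the SBR vehicle libraries also lay above sham in summed level. Hsd17b7 was at 3.49, 3.90 and 3.92 in sham, 6.17, 7.13, 6.03 and 6.25 in SBR vehicle and 5.51, 5.98, 5.93 and 5.55 in treated libraries. Both SBR groups lay above sham, and treated libraries lay below SBR vehicle. The list summed to between 1205 and 1303 TPM in sham, between 3540 and 4996 in SBR vehicle and between 2704 and 4122 in treated libraries. One promoter is shown for this list, that of Hmgcs1, which makes HMG-CoA and was named after its values were seen (fold change 1.96, SE 0.39, limma adjusted p = 0.0275). It was the only one of 17 list promoters with the letters TCACCCCAC, a core of the sterol regulatory element that SREBPs are known to bind, which 166 of 27025 genes (0.614%) hold on either strand. The match, in capitals, starts at base -137 on the gene's own strand.
Hmgcs1, chr13:119690101-119690400, plus strand, match from base -137: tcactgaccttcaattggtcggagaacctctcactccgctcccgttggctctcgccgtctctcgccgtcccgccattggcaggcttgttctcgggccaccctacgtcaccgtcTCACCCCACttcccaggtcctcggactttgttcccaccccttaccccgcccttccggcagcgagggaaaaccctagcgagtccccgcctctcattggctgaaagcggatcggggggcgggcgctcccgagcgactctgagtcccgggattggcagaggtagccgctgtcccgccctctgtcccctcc

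Of 26 genes of fatty acid oxidation and other targets of the PPAR receptors, 5 were called higher and none lower, all 26 lay above 0 and the median was 1.34. Acaa1b, a peroxisomal thiolase, was at 4.43, 4.51 and 4.50 in sham and at 7.32, 7.90, 8.26 and 7.64 in treated libraries (fold change 3.30, SE 0.51, limma adjusted p = 0.0096, highest 0.0534 with a library left out). In SBR vehicle libraries Acaa1b ranged from 4.64 to 7.35, above all sham libraries and, in 1 library, within the treated range. Plin2, which coats lipid droplets, rose by 2.08 (SE 0.35), Pdk4, which slows glucose oxidation, by 2.79 (SE 0.61), Cpt2, the inner mitochondrial carnitine transferase, by 1.90 (SE 0.42) and Cyp4a10, a fatty acid hydroxylase, by 1.78 (SE 0.40). The call of Cyp4a10 was kept in 1 of the 11 fits with 1 library left out, that of Cpt2 in 2 and that of Pdk4 in 3. The receptors Ppara (2.25, SE 0.65, adjusted p = 0.107) and Pparg (1.40, SE 0.33, adjusted p = 0.0527) did not pass. Called members numbered 1, 0 and 2 without sham libraries 1, 2 and 3, and 2 without SBR vehicle library 1 or 3 or without treated library 1, 2 or 3. Without treated library 2 the median was 1.11.

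Of 15 genes of apolipoproteins and chylomicron assembly, 1 was called higher and none lower. Apoa1, the protein of HDL, was at 11.92, 12.87 and 14.43 in sham and at 14.25, 13.67, 14.85 and 16.12 in treated libraries, with overlap (1.65, SE 0.69, limma adjusted p = 0.301). Apoa4 and Apoc3 had fold changes of 1.47 (SE 0.60, adjusted p = 0.283) and 1.23 (SE 0.64, adjusted p = 0.434). Mttp, which loads triglyceride onto nascent particles, was at -0.42 (SE 0.40, adjusted p = 0.723). The called member was Agpat2, an acyltransferase of triglyceride synthesis, at 6.85, 6.50 and 7.35 against 8.48, 9.22, 9.16 and 9.30 (2.14, SE 0.35, adjusted p = 0.0109, above 0.05 without sham library 1 or 2). The last enzyme of that path, Dgat2, was at 1.70 (SE 0.51, adjusted p = 0.123). The list's median was 0.86.

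Of 8 genes that mark the distal small intestine, 5 were called higher and all lay above 0, with a median of 1.44. Fabp6, the cytosolic bile acid carrier, was at 6.35, 5.87 and 6.08 in sham, 8.33, 7.87, 8.37 and 8.03 in SBR vehicle and 7.96, 8.54, 7.91 and 7.71 in treated libraries (1.93, SE 0.29, limma adjusted p = 0.00829). Slc10a2, the apical transporter that takes bile acids up, was at 5.18, 4.87 and 4.42 in sham and at 6.67, 7.19, 6.64 and 6.15 in treated libraries (1.85, SE 0.30, adjusted p = 0.0104). Cubn, the receptor for vitamin B12 with intrinsic factor, rose by 1.60 (SE 0.33, adjusted p = 0.0319), a call kept in 3 of the 11 fits with 1 library left out. The peptide hormone genes Pyy (1.40, SE 0.23) and Nts (1.47, SE 0.27) rose as well. A further hormone gene, Sct, rose by 1.28 (SE 0.22). Pyy, Nts and Sct were the called members among 10 enteroendocrine genes, whose median was 0.29 and of which 2 lay below 0. The count of 5 fell to 2 and 0 without sham libraries 1 and 2, and to 3 without treated library 3 or 4. Without sham library 2, the adjusted p of Fabp6 and of Slc10a2 was 0.0556.

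Among 11 genes of bile acid handling, Fabp6, Slc10a2 and Nr0b2 were called higher and none lower (median 0.74). Nr0b2, the repressor that bile acids induce through FXR, was at 0.65, 0.83 and 1.77 in sham and at 3.31, 3.76, 3.57 and 2.39 in treated libraries (2.17, SE 0.39, limma adjusted p = 0.0177). FXR itself, Nr1h4, was at 1.51 (SE 0.40, adjusted p = 0.0774), and the basolateral bile acid exporter Slc51a at 0.74 (SE 0.22, adjusted p = 0.119). Without sham library 2 none of the 3 called genes passed. Of 9 genes that mark the proximal small intestine, Bco1 alone was called, and the median was 0.04. Bco1, which cleaves beta-carotene into retinal, was at 1.90, 1.75 and 1.69 in sham and at 4.85, 5.30, 4.54 and 3.67 in treated libraries (2.81, SE 0.33, adjusted p = 0.00247, stable). Gata4, the transcription factor of proximal identity, was at 4.68, 5.05 and 4.83 in sham and at 3.44, 0.42, 3.56 and 4.24 in treated libraries. All treated values of Gata4 lay below sham, treated library 2 farthest, and the test did not pass (-1.94, SE 0.79, adjusted p = 0.287). Without that library the value was -1.11 (adjusted p = 0.329).

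Of 32 genes of xenobiotic metabolism, 6 were called higher and 1 lower, with a median of 0.81. The carboxylesterase genes Ces2a (2.42, SE 0.30), Ces2b (1.78, SE 0.22) and Ces2c (2.31, SE 0.28), which hydrolyse esters of drugs and lipids, were called and stable. Ces2a was at 5.52, 5.47 and 5.32 in sham, 5.81, 4.68, 5.34 and 5.41 in SBR vehicle and 7.61, 7.95, 7.66 and 8.21 in treated libraries. The treated group alone stood apart. Ces2 genes are close copies, so reads may be split between them. Aldh1a1, a retinal dehydrogenase, rose by 3.06 (SE 0.60, limma adjusted p = 0.0258, lost without sham library 1 or 2 or treated library 2 or 3, highest 0.137). Ugt2a3, a glucuronosyltransferase, went the other way, at 5.39, 5.48 and 5.09 in sham and at 2.80, 1.88, 2.90 and 4.15 in treated libraries (-2.39, SE 0.42, adjusted p = 0.017). Called higher members numbered 3 without sham library 1 or 2 and without treated library 2 or 3, and Ugt2a3 was not called without sham library 1 or 2.

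Outside lipid metabolism, several genes stood far above sham. H2-Q10, a nonclassical MHC class I gene known chiefly from liver, was at 4.83, 4.52 and 4.70 in sham, 4.52, 4.61, 4.78 and 4.60 in SBR vehicle and 7.22, 7.61, 7.13 and 7.66 in treated libraries. The first 2 groups overlapped, and the treated group lay more than 2 units above both (2.72, SE 0.24, limma adjusted p = 0.000383, stable). It was the only one of 14 MHC class I genes called, and the list's median was -0.70. Its close relatives could share reads, so its level is uncertain. Fbp1, an enzyme of gluconeogenesis, was at 3.85, 4.62 and 4.12 against 7.73, 8.57, 8.77 and 9.12 (4.35, SE 0.59, stable). Lamb3, a chain of laminin in the basement membrane, rose by 2.68 (SE 0.27, stable) and Lama1, another chain, by 1.38 (SE 0.27). They were the called members among 14 basement membrane and adhesion genes, whose median was 0.82. Stromal markers lay above 0 as well, all 14 fibroblast and matrix genes (median 0.70) and all 8 endothelial genes (median 0.54), none called. Fibroblast and matrix genes summed to between 378.5 and 893.6 TPM in sham and between 521.4 and 1427 in treated libraries, endothelial genes to between 142.5 and 233.9 and between 228.0 and 369.8. Their part in the laminin results was not tested.

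Also called and stable were Slc25a48, a mitochondrial carrier (2.78, SE 0.29), Hsd3b3, a steroid dehydrogenase with close copies (3.75, SE 0.44), Suox, the sulfite oxidase (2.04, SE 0.26), Cutal (2.36, SE 0.24) and the semaphorin Sema3b (2.39, SE 0.29). Slc13a1, a sulfate transporter, rose by 1.82 (SE 0.29) and Cldn2, a pore-forming claudin of leaky epithelium, by 2.66 (SE 0.51). The EGF receptor ligands Areg (2.48, SE 0.50) and Ereg (1.60, SE 0.26) rose, 2 of 8 genes of that family. The clock genes Bhlhe40 (2.96, SE 0.43, stable) and Per2 (2.18, SE 0.44) were 2 of 16, with tissue taken in the light phase by the study's methods and the hour not given there. Krt23, a keratin of regenerating epithelium (2.52, SE 0.53), the trefoil peptide gene Tff3 (1.34, SE 0.29) and the stress gene Sesn2 (1.75, SE 0.34) passed the limma test with adjusted p-values of 0.0317, 0.0406 and 0.0238. Krt23 was the 1 gene called higher among 8 of regenerative epithelium, where 1 was called lower (Il33, -1.85), 2 lay below 0 and the median was 0.60. Sesn2 was the 1 gene called among 11 of endoplasmic reticulum and amino acid stress, of which 4 lay below 0, the lowest at -1.15. The call of Tff3 was kept in 1 of the 11 fits with 1 library left out. All genes of this paragraph not named as stable lost their call without sham library 2, except Sesn2, which lost it without sham library 1 or treated library 3 or 4.

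Of the lists of immune and defence genes, those of interferon response, plasma cells and mucosal defence held called members that fell. Of 29 genes of interferon response and host defence, 3 were called lower and none higher, 24 lay below 0 and 16 had all treated libraries below all sham libraries, with a median of -0.95. Ubd, an interferon-induced ubiquitin-like protein, was at 5.36, 5.08 and 5.40 in sham, 1.61, 3.48, 5.09 and 3.70 in SBR vehicle and 1.62, 0.71, 2.19 and 1.62 in treated libraries. It was low in all treated libraries and ranged across both groups in SBR vehicle (-3.75, SE 0.63, limma adjusted p = 0.013). Zbp1, a sensor of Z-form nucleic acid, was at 3.89, 4.08 and 4.88 in sham and at 1.68, 1.44, 1.34 and 2.22 in treated libraries (-2.61, SE 0.44, adjusted p = 0.0132). Psmb8, a subunit of the immunoproteasome, fell by 2.26 (SE 0.51, adjusted p = 0.042, a call kept in 2 of the 11 fits with 1 library left out). Without sham library 1 the list had 1 call, and without sham library 2 none, Zbp1 then having an adjusted p of 0.0556, the highest of its left-out fits. The median was -0.92 and -1.13 in those fits.

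Irf1, a transcription factor of the interferon response, was at 6.26, 5.81 and 5.83 in sham and at 3.77, 3.53, 4.88 and 5.14 in treated libraries, all lower, but the test did not pass (-1.64, SE 0.55, limma adjusted p = 0.179). The GTPase genes Irgm1 (-0.63, SE 0.48, adjusted p = 0.634) and Irgm2 (-1.24, SE 0.76, adjusted p = 0.535) did not pass either. Ifit3 lay above 0 at 1.54 (SE 0.77, adjusted p = 0.409), with treated library 4 at 6.26 and the other treated libraries between 2.64 and 3.05. The promoter of Irgm2 is shown as an example of the list. It holds the letters TTTC, any 2 bases and TTTC, the spacing of the interferon-stimulated response element, on the opposite strand from base -64 (in capitals). Of 25 list members with a promoter in the table, 14 hold these letters on either strand, against 362 of 9653 tested genes (3.75%). Ubd, Zbp1 and Psmb8 were not among the 14.
Irgm2, chr11:58214727-58215026, plus strand, match from base -64: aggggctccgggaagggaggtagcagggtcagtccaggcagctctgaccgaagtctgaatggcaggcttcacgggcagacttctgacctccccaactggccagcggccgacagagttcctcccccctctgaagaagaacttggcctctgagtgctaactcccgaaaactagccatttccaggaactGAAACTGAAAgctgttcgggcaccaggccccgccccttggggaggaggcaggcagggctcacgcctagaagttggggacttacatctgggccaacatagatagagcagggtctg

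All 9 MHC class II genes tested lay below 0 with a median of -1.31. None passed limma's adjusted test, and 5 had an unadjusted p under 0.05. H2-Aa, a class II chain, was at 7.15, 7.40 and 7.08 in sham and at 5.48, 3.99, 6.69 and 5.55 in treated libraries (-1.78, SE 0.74, adjusted p = 0.297), and Cd74, the invariant chain, was at -2.03 (SE 0.80, adjusted p = 0.269). B2m, the light chain of class I, was at -1.71 (SE 0.58, adjusted p = 0.182). Treated library 2 was the lowest in all 3 of these genes, and without it the class II median was -0.86.

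Of 7 plasma cell genes, 3 were called lower. The kappa constant gene Igkc was at 10.35, 9.70 and 8.58 in sham, 8.47, 7.68, 9.21 and 8.12 in SBR vehicle and 6.76, 6.46, 7.62 and 6.71 in treated libraries (-2.66, SE 0.48, limma adjusted p = 0.0177). Igha, the heavy chain of IgA, fell by 2.02 (SE 0.42) and Jchain, which joins IgA dimers, by 1.57 (SE 0.35), a call kept in 1 of the 11 fits with 1 library left out. The treated libraries lay below all sham libraries in each of these genes. Those 3 were the called members among 7 plasma cell genes, all of which lay below 0, with a median of -1.01. Summed plasma cell TPM was between 577 and 1731 in sham and between 138 and 398.7 in treated libraries. The variable and joining genes Igkv2-112 (-3.58, SE 0.43, stable) and Iglj3 (-2.48, SE 0.38) were also lower, and closely related variable genes can share reads. The list had 0 calls without sham library 1 or 2, and 1 call without SBR vehicle library 1 or treated library 1, 2 or 4. Over the fits with 1 library left out, the highest adjusted p was 0.0915 for Igkc and 0.152 for Igha.

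Pigr, the receptor that carries IgA across the epithelium, was at 9.88, 10.12 and 9.20 in sham, 8.53, 8.51, 9.36 and 8.71 in SBR vehicle and 7.73, 6.53, 7.88 and 7.56 in treated libraries. The order was sham, SBR vehicle and treated, with overlap only between the first 2 groups (-2.31, SE 0.39, limma adjusted p = 0.014). Duoxa2, the maturation factor of the epithelial oxidase, fell by 1.59 (SE 0.36, adjusted p = 0.0447). They were 2 of 11 antimicrobial and mucosal defence genes, whose median was -0.36, and neither was called without sham library 1 or 2. The call of Duoxa2 was kept in 1 of the 11 fits with 1 library left out. Il33, the alarmin, fell by 1.85 (SE 0.29), and Dmbt1, a mucosal scavenger receptor, by 2.97 (SE 0.49), both losing the call without sham library 1 or 2. Mbl2, the mannose-binding lectin, was at 8.42, 8.43 and 7.34 in sham and at 4.00, 1.81, 3.95 and 4.76 in treated libraries (-4.44, SE 0.63, stable), the largest decrease of all genes.

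No T cell gene was called: all 11 lay below 0, with a median of -0.84, 7 had an unadjusted p under 0.05 by limma and none passed the adjusted test. Gzma, a granzyme of intraepithelial lymphocytes, was at 3.13, 3.15 and 3.17 in sham and at 2.00, 1.65, 2.18 and 2.22 in treated libraries (-1.13, SE 0.27, adjusted p = 0.0566). Cd3g, a chain of the T cell receptor complex, was at -0.85 (SE 0.23, adjusted p = 0.0914). Paneth cell genes were alike, all 12 below 0 with a median of -0.85, 5 at an unadjusted p under 0.05 and none called. Lyz1, their lysozyme, was at -0.75 (SE 0.35, adjusted p = 0.368). The part that numbers of these cells have in the results above was not tested.

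**Figure D3:**
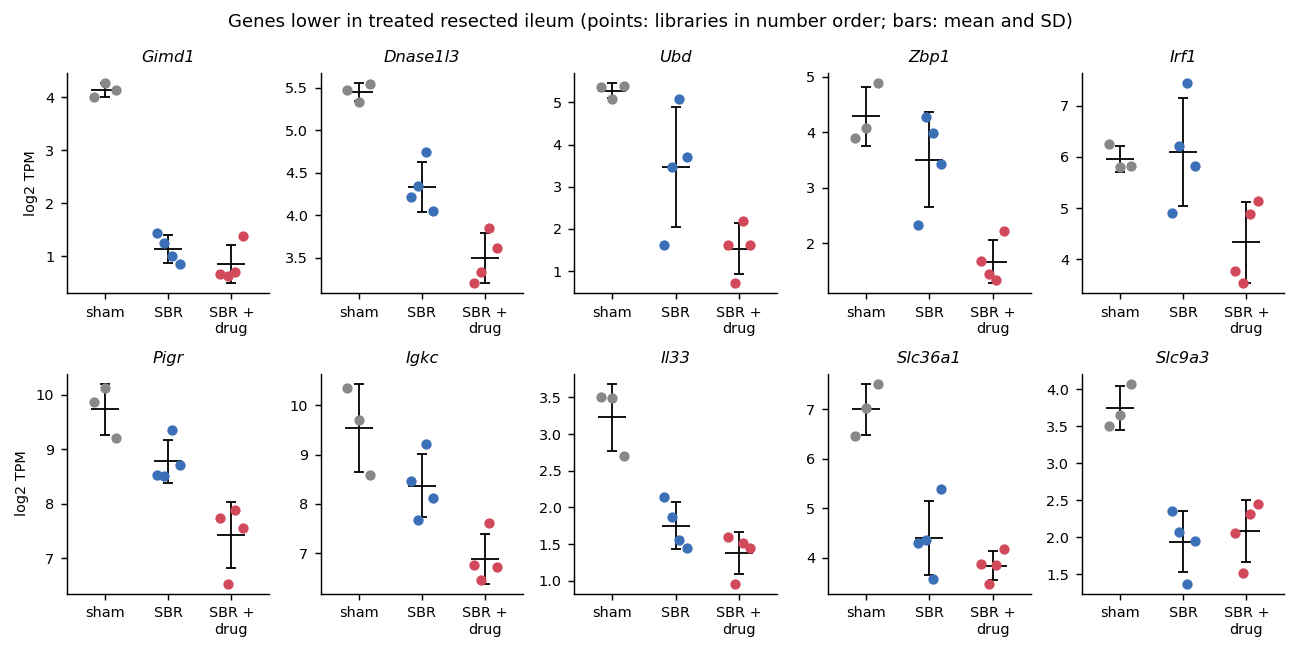
Log2 TPM (y axis) of 10 genes that were lower in treated SBR ileum, by group, with libraries as points and the mean and SD as bars (n = 3, 4 and 4). Gimd1, Slc36a1 and Slc9a3 are low in both SBR groups, whereas Zbp1 and Irf1 are lowest in the drug group. Irf1 did not pass the test.

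The lower gene with the smallest p was Gimd1, a GTPase gene, at 4.00, 4.26 and 4.13 in sham, 1.43, 1.25, 1.00 and 0.85 in SBR vehicle and 0.67, 0.62, 0.71 and 1.38 in treated libraries (-3.29, SE 0.26, limma adjusted p = 0.000189, stable). Both SBR groups lay more than 2 units below sham. Slc36a1, the proton-coupled amino acid transporter, was at 6.47, 7.03 and 7.51 in sham and at 3.86, 3.47, 3.85 and 4.17 in treated libraries (-3.17, SE 0.40, stable). The secreted nucleases Dnase1 (-2.42, SE 0.33) and Dnase1l3 (-1.94, SE 0.26) and glutathione reductase, Gsr (-1.96, SE 0.29), fell and were stable. Dnase1l3 was at 5.47, 5.33 and 5.54 in sham, 4.22, 4.34, 4.74 and 4.05 in SBR vehicle and 3.20, 3.33, 3.85 and 3.62 in treated libraries, 3 groups without overlap. Pkhd1, the fibrocystin gene, fell by 2.49 (SE 0.43). The apical sodium-proton exchanger Slc9a3 was the called member among 12 ion and water transport genes (-1.67, SE 0.31, adjusted p = 0.0202). Slc7a8, an exchanger of neutral amino acids, fell by 1.95 (SE 0.45, adjusted p = 0.0491), and with Slc13a1 it made up the calls among 18 nutrient transporters, whose median was 0.20. Pkhd1 was not called without sham library 2, nor Slc9a3 without any 1 of the sham libraries, and the call of Slc7a8 was kept in 3 of the 11 fits with 1 library left out.

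Digestive enzymes, stem cell genes and the cell cycle showed no calls. Of 16 brush border hydrolases none passed, 5 were higher and 2 lower at an unadjusted p under 0.05 by limma, and the median was 0.28. Treh, the trehalase, was at 1.36 (SE 0.36, adjusted p = 0.0788) and Mep1a, a metalloprotease, at 0.89 (SE 0.29, adjusted p = 0.172). No gene of 15 stem cell and Wnt targets (median -0.02, range -0.41 to 0.44) or of 21 cell cycle genes (median -0.19) had an unadjusted p under 0.05. The same was true of 81 cytosolic ribosomal protein genes (median -0.21) and 54 histone genes (median -0.27).

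Both adipocyte genes in the table were called, Cidec at 2.69, 1.73 and 4.97 against 6.08, 6.81, 6.62 and 6.43 (3.36, SE 0.61, limma adjusted p = 0.0183) and Cfd at 2.71, -0.71 and 3.27 against 5.50, 6.62, 4.97 and 4.35 (3.60, SE 0.80, adjusted p = 0.0407). They summed to between 2.3 and 39 TPM in sham and between 104.9 and 208.8 in treated libraries. Cidec is also a known gene of lipid-laden cells. Both calls were lost without sham library 1 or 2 and without treated library 2 or 3, and that of Cfd in 10 of the 11 fits with 1 library left out. Of 6 adipocyte markers listed, only Cidec and Cfd were in the table. Of 8 hepatocyte genes 1 was called, Cyp2e1, at 5.90, 4.83 and 6.32 against 9.86, 11.37, 8.39 and 8.02 (3.73, SE 0.73, adjusted p = 0.0258, lost without sham library 1 or 2 or treated library 1). The 8 summed to between 942.3 and 1094 TPM in sham and to between 1352 and 12464 in treated libraries. Treated library 2 held the top of that range, with Alb at 12.70 against 9.09 to 9.73 in the other treated libraries. The fold change of Ahsg was 1.34 with that library and 0.11 without it. The hepatocyte median was 1.15 with that library and 0.16 without it, whereas those of fatty acid synthesis and desaturation and of LXR sterol and phospholipid targets were both 1.74 without it. The part of such cells in the lipid results was not tested.

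The combined difference was then set beside its parts, resection alone (SBR vehicle minus sham) and the drug after resection (treated minus SBR vehicle). Each pair of comparisons shares libraries, and the 2 parts add up to the combined value by construction, so they are given side by side only. Resection alone gave 55 calls (0.349%), 38 higher (0.241%) and 17 lower (0.108%), and the drug after resection 11 (0.0697%), all higher, with 433 genes (2.75%) lower at an unadjusted p under 0.05 by limma and none after adjustment. At an unadjusted p under 0.05 lay 8.46% of genes with resection alone (5.52% higher, 2.94% lower) and 6.87% with the drug (4.12% higher). The first count lay between 3 and 111 and the second between 2 and 12 with 1 library left out. The lowest values came without sham library 2 for the first, and without SBR vehicle library 1 or 2 or treated library 4 for the second.

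**Figure D4:**
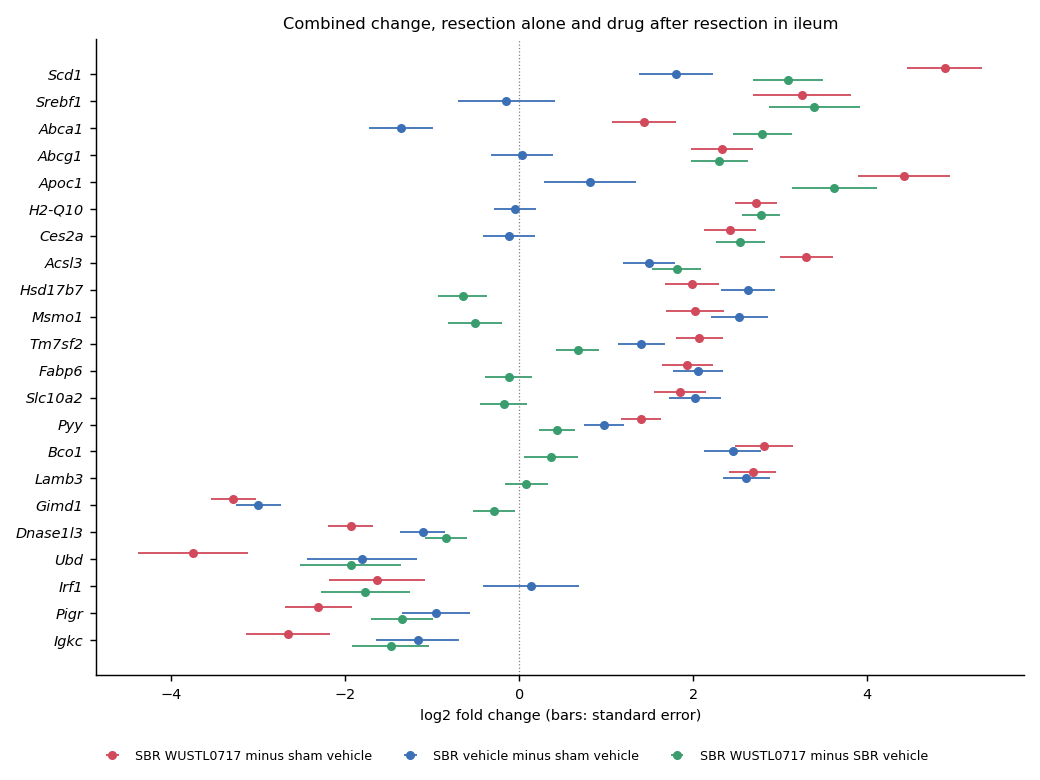
Log2 fold changes with standard errors (x axis) for 22 genes in 3 comparisons of ileal groups: treated SBR against sham (red), SBR vehicle against sham (blue) and treated SBR against SBR vehicle (green). Srebf1, Abcg1, H2-Q10 and Ces2a have blue points near 0, whereas Hsd17b7, Fabp6, Slc10a2, Lamb3 and Gimd1 have green points near 0 or of opposite sign.

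The 11 genes called for the drug were Scd1 (3.09, limma adjusted p = 0.022), Scd3 (2.59, 0.0323), Srebf1 (3.39, 0.0427), Acsl3 (1.81, 0.0427), Utp14b (1.68, 0.0235), Abca1 (2.79, 0.0165), Abcg1 (2.30, 0.0304), Abcg5 (2.68, 0.0233), Apoc1 (3.62, 0.0233), Ces2a (2.54, 0.00678) and H2-Q10 (2.78, 0.000482). All but Utp14b had an adjusted p above 0.05 for resection alone. In that comparison Srebf1 was at -0.15, Abcg1 at 0.03, H2-Q10 at -0.05, Ces2a at -0.12 and Apoc1 at 0.81. Scd1 was at 1.80, a value above 0 that did not pass (adjusted p = 0.136). The 12 LXR sterol targets had medians of -0.28 with resection alone and 2.23 with the drug. The 16 fatty acid synthesis genes had medians of 1.19 and 1.24.

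Other genes were called for resection alone and not for the drug after resection. With resection Gimd1 was at -3.00 (limma adjusted p = 0.00105), Slc25a48 at 3.02 (0.0015), Lamb3 at 2.61 (0.00224), Hsd17b7 at 2.63 (0.00696), Suox at 2.13 (0.00744), Bco1 at 2.45 (0.0123), Fabp6 at 2.05 (0.0137), Slc10a2 at 2.02 (0.0145), Mbl2 at -4.38 (0.0145), Cldn2 at 3.38 (0.0151) and Ugt2a3 at -3.34 (0.0111). For the drug after resection these lay between -0.72 and 0.95, none called. In Cldn2, Ugt2a3, Hsd17b7, Slc25a48, Suox, Fabp6 and Slc10a2 the value for the drug had the opposite sign to that for resection alone. The 11 genes were picked by their call for resection alone, and the drug comparison subtracts the same SBR vehicle libraries. That choice by itself favours opposite signs, so no reversal by the drug is read from them. The 25 cholesterol synthesis genes had a median of 1.62 with resection, 6 called, and of -0.30 with the drug, none called, with 2 higher and 3 lower at an unadjusted p under 0.05. For the distal genes the medians were 0.96 and 0.21.

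Several lower genes had values below 0 in both parts, and neither part passed by itself. Pigr was at -0.96 with resection and -1.35 with the drug, Igkc at -1.17 and -1.48, Ubd at -1.81 and -1.94, and Dnase1l3 at -1.11 and -0.84, with limma adjusted p-values from 0.117 to 0.501. Dmbt1 was at -0.31 and -2.66 (adjusted p = 0.0972 for the drug) and Zbp1 at -0.78 and -1.83. Irf1 was at 0.13 with resection (adjusted p = 0.995) and -1.77 with the drug (adjusted p = 0.484). The 29 interferon genes had medians of 0.29 and -1.36. With the drug, 28 of them lay below 0 and 17 had an unadjusted p under 0.05, but none was called.

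Whether the combined difference was the same in the ileum and in the duodenum, which lies upstream of the resection, was tested as a difference of differences over the 22 intestinal libraries. It was called in 44 genes (0.279%), 16 higher (0.101%) and 28 lower (0.178%) in ileum, and 2097 genes (13.3%) had an unadjusted p under 0.05, 10.4% of all genes higher and 2.9% lower. In the duodenum itself 385 genes (2.44%) differed between 4 treated SBR and 3 sham libraries, 1.66% higher and 0.78% lower. The median difference of differences was 0.39, and centring each library on its median brought it to -0.04 and the count to 152 (37 higher, 115 lower). The balance of higher and lower calls turned with a filter at a mean of 3 log2 TPM (31 higher, 15 lower) and with library weights (256 and 110). With 1 library left out the count lay between 8 (without duodenal sham library 3) and 92 (without duodenal treated library 1). Ileal and duodenal libraries may come from the same mice, which the labels do not name, and the test treated all 22 as independent.

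**Figure D5:**
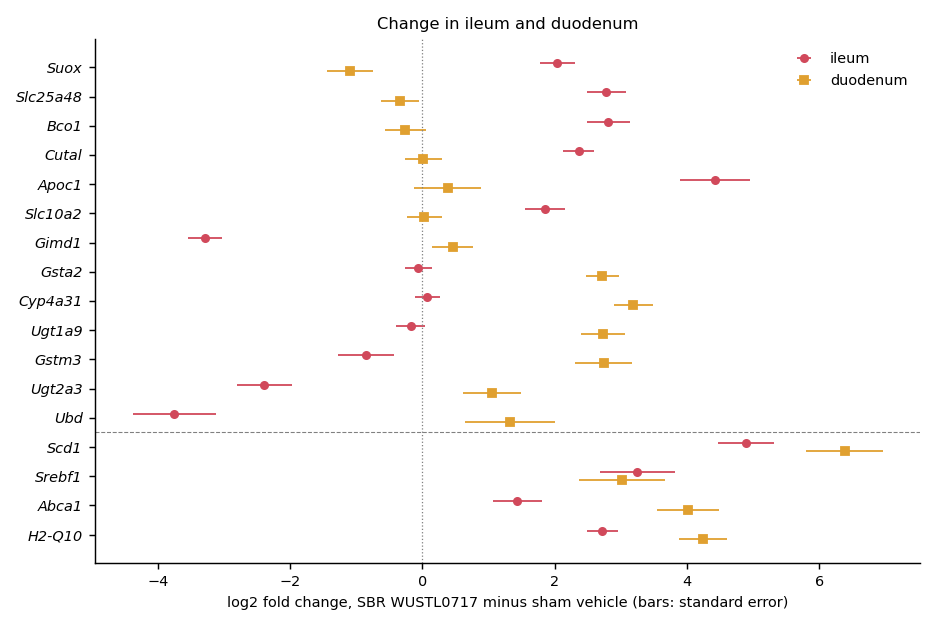
Log2 fold changes of treated SBR against sham with standard errors (x axis) in ileum (red circles) and duodenum (orange squares). Above the dashed line are 13 genes whose change differed between regions at an adjusted p under 0.05, and below it 4 genes for which the difference did not pass.

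Higher in ileum and not in duodenum were Apoc1 (4.42 in ileum and 0.38 in duodenum, limma adjusted p of the difference 0.0206), Suox (2.04 and -1.10, 0.00537), Slc25a48 (2.78 and -0.34, 0.000557), Bco1 (2.81 and -0.26, 0.00168), Cutal (2.36 and 0.01, 0.0125) and Slc10a2 (1.85 and 0.03, 0.0466). Lower in ileum alone were Gimd1 (-3.29 and 0.46, 0.000469), Dnase1 (-2.42 and 0.07, 0.0466), Il33 (-1.85 and 0.36, 0.0462), Pkhd1 (-2.49 and 0.10, 0.0476), Ugt2a3 (-2.39 and 1.05, 0.0229) and Ubd (-3.75 and 1.33, 0.0286). The word stable, as used above, does not refer to calls of this test, whose total fell to 8 without duodenal sham library 3. Some detoxifying enzyme genes were called higher in duodenum and not called in ileum. Among them were Gsta2 (-0.06 in ileum and 2.72 in duodenum, adjusted p of the difference 0.000557), Ugt1a9 (-0.18 and 2.73, 0.00734) and Gstm3 (-0.85 and 2.74, 0.0118). The fatty acid hydroxylase gene Cyp4a31 was at 0.07 and 3.19 (0.000557), but 8 of its 11 ileal values were tied at the lowest intestinal value of that gene, so a decrease there could not have been seen.

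For several further genes the difference between regions did not pass. Srebf1 was at 3.25 in ileum and 3.02 in duodenum (limma adjusted p of the difference 0.929), Scd1 at 4.89 and 6.38 (0.433), Abcg1 at 2.33 and 1.39 (0.45) and H2-Q10 at 2.72 and 4.24 (0.213). The standard errors of these differences, 0.92 for Srebf1 and 0.82 for Scd1, leave room for sizeable ones. Abca1 was at 1.43 and 4.02 (SE of the difference 0.67, adjusted p = 0.108). Fasn and Thrsp were at 3.24 and 4.21 in ileum and at 0.15 and 0.08 in duodenum (adjusted p of the difference 0.179 and 0.0568). Mttp was at -0.42 and 2.01 (0.0696), and Apoa1 at 1.65 and 2.41 (0.733).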

How the data were processed

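RNA was sequenced after ribosomal RNA depletion, and the 11 ileal libraries (3 sham vehicle, 4 SBR vehicle, 4 SBR WUSTL0717) and 11 duodenal libraries were used. Per the submitters' notes and the study's methods, the authors used bcl2fastq, STAR and Subread featureCounts on GRCm38, scaled counts by TMM in edgeR, and deposited log2 TPM corrected with ComBat. The labels put all intestinal libraries in 1 batch and the liver in another, whereas the methods speak of batch effects between experimental groups. Which variable was corrected is not settled by these sources, and a correction between treatment groups would bear on the differences given here. Values below 0 occur (863 in ileum), and the depth per library is unknown. The header names were shifted by 1 field, so columns were read by position of the values.

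Genes with a mean of at least 1 log2 TPM over the ileal libraries were fitted with limma 3.58.1 in R 4.3.3 (3 groups, variance trend, two-sided, Benjamini-Hochberg over 15772 genes, called at an adjusted p under 0.05). The difference from the duodenum was an interaction over 22 libraries. The labels number libraries within groups but name no animals, litters or days, so p-values measure the spread between these libraries, which may be technical in part. Tables and figures were made with Python 3.11.15, numpy 2.4.6, pandas 2.3.3 and matplotlib 3.10.9. The fit was tested on simulated data with 200 changed genes.

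Gene lists and genes were chosen with earlier results of these data known. Named genes were the 15 higher and 15 lower with the smallest p, genes the study names for the ileum, up to 6 members of each list with the smallest p plus its extremes, the 5 higher and 5 lower with the smallest p against the duodenum, and markers of other cell types. Hmgcs1 was added after its values were seen. Alternatives were filters, pseudocounts, scalings, moderation, weights, the groups in the fit, a replicate block and leaving out each library. Symbols were matched to GENCODE genes by name (15578) or through a RefSeq synonym (178), 18 were ambiguous and 184 did not match. Gene positions are from GENCODE on GRCm38, and promoters from RefSeq, GRCm38.p6.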

Additional observations from a re-analysis of the deposited data

Results flagged for a closer look

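Within the groups of 4 ileal libraries, 17 of 234 gene and group values checked had 1 library far from the others by Dixon's criterion, and chance gives about 1 in 20 groups. In the treated group, library 2 stood high in Scd3 (6.46), Thrsp (10.54), Elovl6 (4.81), Aldh1a1 (9.28) and Hsd3b3 (6.13), library 4 in Gimd1 (1.38) and Ifit3 (6.26) and library 1 in Gsta2 (1.59), and library 1 stood low in Iglj3 (-0.92). In SBR vehicle, library 4 stood apart in Srebf1 (4.96, low), Cyp4a10 (4.17, high), Cyp4a31 (1.38, high) and Areg (1.22, low). Library 2 of that group stood low in Abca1 (4.07) and Nr0b2 (0.95), and library 1 was low in Utp14b (3.41) and high in Pyy (4.17).

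The change in treated SBR against sham differed between ileum and duodenum by the limma interaction in 16 named genes. The ileal minus the duodenal change was 4.04 for Apoc1, 1.82 for Slc10a2, 3.07 for Bco1, 2.35 for Cutal, 3.12 for Slc25a48 and 3.13 for Suox. It was -3.43 for Ugt2a3, -2.78 for Gsta2, -2.91 for Ugt1a9, -3.59 for Gstm3, -3.12 for Cyp4a31, -3.74 for Gimd1, -2.49 for Dnase1, -2.21 for Il33, -5.08 for Ubd and -2.59 for Pkhd1.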

How the results depend on the processing

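The 343 calls became 0 (0 higher, 0 lower) with an unmoderated two-sample test, whose lowest adjusted p was 0.0964. They became 764 (497 higher, 267 lower) with library weights, 137 (101 and 36) with the compared groups alone, and 1301 (913 and 388) at an unadjusted p under 0.05 and at least a 2-fold change. Calls lower numbered 53 with a filter at a mean of 3 and 127 with quantile normalization. With a replicate block they were 43 (36 and 7), against 179 (142 and 37) in the same libraries without it, an alternative chosen after seeing the data. Same-numbered libraries had deviations correlated between -0.32 and 0.24, so the numbers do not pair them. With 1 library left out, calls ranged from 65 to 323, with 50 to 255 higher and 10 to 71 lower. Totals of 300 to 424 came with no filter, a filter at 3, either pseudocount, centring, quantile normalization and no variance trend. For the difference from the duodenum, the 44 calls became 152 (37 higher, 115 lower) with centring and 366 (256 and 110) with library weights. A filter at 3 gave 31 higher and 15 lower, and leaving out 1 library gave 8 to 92, with 3 to 53 higher and 5 to 39 lower. For resection alone, leaving out 1 library gave 3 to 111, and for the drug after resection 2 to 12. Of named genes, 2 without a call reversed, Nr1h2 (-0.51 to 0.32 with 1 library left out, 0.32 without sham library 3 and 0.08 without treated library 1) and Gsta2 (-0.15 to 0.00, the latter without sham library 1). The causes were not tested, apart from the fewer libraries that some fits hold. Depth is unknown, so counting error could not be given.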
